A study of Mus musculus with 6 samples.

Results

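The Egr, Nr4a and Ier immediate early genes are 9 mouse genes, taken by name: Egr1, Egr2, Egr3, Nr4a1, Nr4a2, Nr4a3, Ier2, Ier3 and Ier5. All 9 were found among the 43432 genes of the table of normalized counts, and 6 of them reached the mean of 10 normalized counts that a gene needed to be tested. They were measured by bulk RNA-seq of CD11b+ splenic cells, which were sorted on day 8 after cell transfer from 6 recipient mice (Rag1 KO, C57BL/6J). Loss of Rag1 leaves a mouse without lymphocytes that bear rearranged receptors, and CD11b is an integrin chain of neutrophils, monocytes, many macrophages and some dendritic cells. In both groups the recipients were given 2D2 CD4+ T cells, specific for the myelin antigen MOG (myelin oligodendrocyte glycoprotein), and MOG-loaded B cells grown in the iGB culture. In the WT iGB6 group (3 mice) the B cells were wild type and had been transduced with a pMSCV-IRES2-eGFP retroviral vector carrying Il6. In the IgHMOG iGBGFP group (3 mice) the B cells bore IgHMOG, a heavy chain specific for MOG, and the same vector without Il6. The groups thus differ in both the genotype of the B cells and the vector, whose effects cannot be told apart. Replicate 1 was female and replicates 2 and 3 were male in both groups, and the labels used here do not give the age of the animals.

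Immediate early genes are transcribed within minutes of a stimulus without new protein synthesis, because the factors that switch them on, such as SRF with its ternary complex partners, CREB and MEF2, already lie in the nucleus and are activated by kinases of the ERK and p38 cascades. Their transcripts are short-lived, so their level follows recent signalling. In myeloid cells the Egr factors are known for their part in macrophage differentiation, and Nr4a1 is needed for the survival of non-classical monocytes in mice. The same genes are also induced when tissue is dissociated and cells are sorted.

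Libraries held 5955142 to 7564254 reads in WT iGB6 mice and 5196339 to 6611212 reads in IgHMOG iGBGFP mice. The summed level of 5 CD11b+ leukocyte markers was 65155 to 72074 normalized counts in WT iGB6 libraries and 60704 to 70424 in IgHMOG iGBGFP libraries, and 0 of the 5 were called by limma, edgeR or DESeq2 (2 had an unadjusted limma p under 0.05). A normalized count is the number of reads of a gene divided by the size factor of its library. The 9 genes together held 0.0146, 0.0216 and 0.0115% of all normalized counts in WT iGB6 replicates 1, 2 and 3, against 0.0271, 0.0465 and 0.0380% in IgHMOG iGBGFP replicates 1, 2 and 3.

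The comparison asks how the immediate early genes of splenic CD11b+ cells differed with the kind of B cell transferred, wild type with Il6 or IgHMOG with empty vector. Ier5, Egr2 and Nr4a1 fell in WT iGB6 mice, with mean levels that were 26.7%, 28.8% and 40.9% of those in IgHMOG iGBGFP mice. Egr1 had a mean level of 21.3% of that in IgHMOG iGBGFP mice, varied widely between WT iGB6 mice and did not pass the test. Ier2 and Ier3, at 72.5% and 64.2%, did not pass, and Egr3, Nr4a2 and Nr4a3 were too low to test. The 3 calls among 6 tested members compare with 3.37% of the 9923 tested genes called lower and 2.75% called higher by limma at an adjusted p under 0.05. In bulk RNA, fewer cells of a type that expresses a gene and less of its RNA per cell cannot be told apart.

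The promoters of the 3 members that fell are shown because the binding sites of the factors that switch on immediate early genes lie close to the start site. Each sequence is the 250 bases upstream of a RefSeq start site on the strand of the gene, build GRCm38.p6, 5′ to 3′, and motif matches are in capitals. Egr2 has 5 entries, and the one shown starts at the first-numbered GENCODE transcript of the gene.
Egr2, chr10:67537619-67537868, plus strand: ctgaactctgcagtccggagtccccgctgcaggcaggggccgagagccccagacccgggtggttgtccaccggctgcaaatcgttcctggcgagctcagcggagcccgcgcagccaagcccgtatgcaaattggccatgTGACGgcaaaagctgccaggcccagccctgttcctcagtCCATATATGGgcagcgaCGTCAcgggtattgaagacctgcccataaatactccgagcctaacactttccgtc
Nr4a1, chr15:101266596-101266845, plus strand: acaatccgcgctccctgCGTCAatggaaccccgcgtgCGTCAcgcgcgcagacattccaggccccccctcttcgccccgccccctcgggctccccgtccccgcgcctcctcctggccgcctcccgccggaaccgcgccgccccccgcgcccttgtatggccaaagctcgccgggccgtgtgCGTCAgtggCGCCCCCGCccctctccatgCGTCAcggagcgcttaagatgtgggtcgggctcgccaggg
Ier5, chr1:155099637-155099886, minus strand: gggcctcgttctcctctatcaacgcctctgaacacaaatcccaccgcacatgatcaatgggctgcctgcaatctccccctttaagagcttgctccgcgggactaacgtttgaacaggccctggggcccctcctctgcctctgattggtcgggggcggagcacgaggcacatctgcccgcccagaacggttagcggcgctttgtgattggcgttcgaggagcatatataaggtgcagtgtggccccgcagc

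The motifs searched on both strands were the CArG box bound by SRF, the CRE core TGACG or CGTCA bound by CREB, the EGR site GCGNGGGCG, and the NBRE AAAGGTCA bound by Nr4a proteins. The Egr2 promoter held a CArG box that began 72 bases upstream of the start site and CRE cores at 111 and 55 bases. Nr4a1 held CRE cores at 233, 213, 69 and 40 bases and an EGR site at 60 bases, while the Ier5 window held none of the 4 motifs. Of the other members, the Nr4a2 window held 4 CRE cores and 1 EGR site, the Nr4a3 window held 4 CRE cores and the Ier3 window held none. The RefSeq start site used for Nr4a2 lay 8965 bases from the start of its first-numbered GENCODE transcript. For Nr4a3 and Ier3 this distance was 152 and 29 bases. Among 32851 promoter windows of the same length, 1.47% held a CArG box, 17.8% a CRE core, 4.70% an EGR site and 1.34% an NBRE. The CRE core is part of no other motif searched. A match describes the letters of the window and not a bound site. Promoters of Egr1, Egr3 and Ier2 were not analysed here.

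The Egr genes encode zinc finger transcription factors that bind GC-rich sites. Egr2 (ENSMUSG00000037868, GRCm38 chromosome 10, 67535475 to 67542188, plus strand) had 11.9, 27.6 and 12.4 normalized counts in WT iGB6 replicates 1, 2 and 3, against 43.0, 80.2 and 57.0 in IgHMOG iGBGFP replicates 1, 2 and 3. Replicate 2 was the highest in each group, and the highest WT iGB6 mouse lay below the lowest IgHMOG iGBGFP mouse. Egr2 averaged 17.3 ± 8.96 normalized counts in WT iGB6 mice and 60.0 ± 18.8 in IgHMOG iGBGFP mice (SD, n = 3 each), a log2 fold change of -1.80 (SE 0.36, limma adjusted p = 0.0242). The difference was -1.77 between the females and -1.81 between the males on the log2 scale. These values rest on 10, 35 and 11 reads in WT iGB6 libraries and 42, 93 and 57 reads in IgHMOG iGBGFP libraries. The call ended without WT iGB6 replicate 1 (adjusted p = 0.0739), without IgHMOG iGBGFP replicates 1, 2 or 3 (0.0816, 0.178 and 0.102 in turn), in males alone (0.0746) and without the sex term (0.110).

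Egr1 (ENSMUSG00000038418, chromosome 18, 34859823 to 34864984, plus strand) had 40.3, 122 and 6.75 normalized counts in WT iGB6 replicates 1, 2 and 3, against 152, 467 and 174 in IgHMOG iGBGFP replicates 1, 2 and 3. The groups did not overlap, but WT iGB6 replicate 2 stood far above replicate 3, 18.0-fold apart, while the highest and lowest IgHMOG iGBGFP mice were 3.06-fold apart. WT iGB6 replicate 3 held 6 reads, with an exact Poisson 95% interval of 2.20 to 13.1 reads that covers counting error only. The means were 56.2 ± 59.0 normalized counts in WT iGB6 mice and 264 ± 175 in IgHMOG iGBGFP mice (SD, n = 3 each), and the log2 fold change of -2.77 (SE 0.82) did not pass (limma adjusted p = 0.0709). Without WT iGB6 replicate 3 the log2 fold change was -1.51 with an adjusted p of 0.0300, and without WT iGB6 replicate 2 it was -3.79 with an adjusted p of 1.12e-05. The authors' deposited table gives -0.78 (SE 0.42, adjusted p = 0.295) for Egr1. DESeq2 on the recovered reads gave -2.20 (SE 1.14, adjusted p = 0.248). For all 6 tested members the deposited log2 fold change lay nearer 0 than that of DESeq2 on recovered reads. The deposited and refitted values may therefore not be the same kind of estimate. Egr3, a close relative that Egr1 and Egr2 resemble in their zinc fingers, had 1 read in IgHMOG iGBGFP replicate 2 and 0 reads in the other libraries, where a count of 0 allows up to 3 reads, or 2.37 to 3.56 normalized counts, a one-sided limit unlike the two-sided interval given for Egr1.

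**Figure D1:**
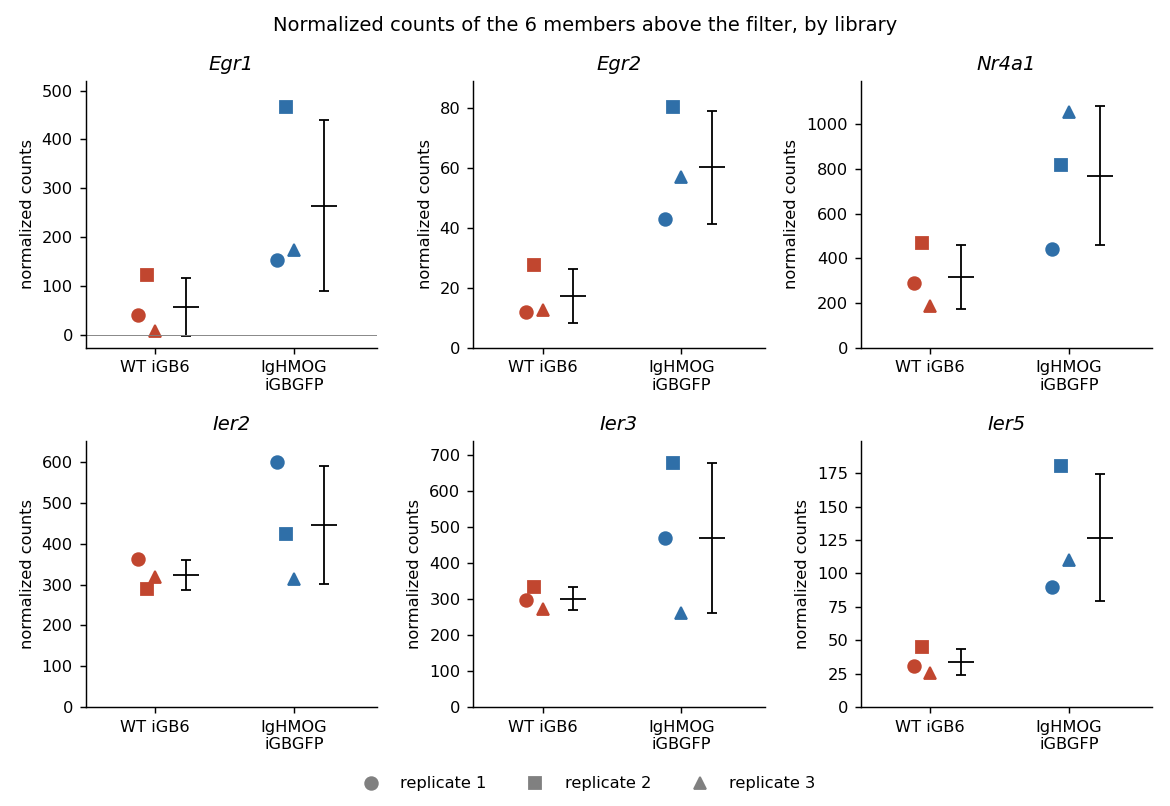
Normalized counts of the 6 tested members in each library. The vertical axis of each panel is in normalized counts, WT iGB6 libraries (red) stand left of IgHMOG iGBGFP libraries (blue), marker shapes give the replicate number, and bars are the mean ± SD over 3 mice; Egr1, Egr2 and Ier5 have no overlap between groups, while Nr4a1, Ier2 and Ier3 overlap.

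The Nr4a genes encode orphan nuclear receptors, which bind DNA without needing a known natural ligand. Nr4a1 (ENSMUSG00000023034, chromosome 15, 101254269 to 101274795, plus strand) had 289, 469.7 and 187 normalized counts in WT iGB6 replicates 1, 2 and 3, against 439.9, 817 and 1056 in IgHMOG iGBGFP replicates 1, 2 and 3. WT iGB6 replicate 2 lay above IgHMOG iGBGFP replicate 1, so the groups overlapped, and the males of IgHMOG iGBGFP were the highest of the 6 mice. Nr4a1 averaged 315 ± 143 normalized counts in WT iGB6 mice and 771 ± 310.4 in IgHMOG iGBGFP mice (SD, n = 3 each), a log2 fold change of -1.30 (SE 0.33, limma adjusted p = 0.0487). Within each sex the difference was -0.60 in females and -1.64 in males on the log2 scale. The call ended without WT iGB6 replicate 1 (adjusted p = 0.0612), without IgHMOG iGBGFP replicates 1, 2 or 3 (0.0579, 0.232 and 0.188 in turn), in males alone (0.0603), without the sex term (0.139) and with edgeR (0.0506), and the log2 fold change was -0.82 without WT iGB6 replicate 3 (adjusted p = 0.0263). Nr4a2 and Nr4a3, the other receptors of the family, were barely detected. Nr4a2 had 2, 1 and 3 reads in WT iGB6 libraries and 2, 6 and 2 reads in IgHMOG iGBGFP libraries. Nr4a3 had 0, 1 and 2 reads in WT iGB6 libraries and 2, 1 and 0 reads in IgHMOG iGBGFP libraries.

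The Ier genes were named for their early response and do not form a single family: Ier2 and Ier5 encode related nuclear proteins, while Ier3 encodes an unrelated regulator of cell survival under stress. Ier5 (ENSMUSG00000056708, chromosome 1, 155096361 to 155099636, minus strand), known as a partner of the heat shock transcription factor, had 30.8, 45.0 and 25.9 normalized counts in WT iGB6 replicates 1, 2 and 3, against 90.0, 180.2 and 110.0 in IgHMOG iGBGFP replicates 1, 2 and 3. All WT iGB6 mice lay below all IgHMOG iGBGFP mice, and replicate 2 was again the highest of each group. Ier5 averaged 33.9 ± 9.92 normalized counts in WT iGB6 mice and 127 ± 47.4 in IgHMOG iGBGFP mice (SD, n = 3 each), a log2 fold change of -1.85 (SE 0.31, limma adjusted p = 0.0137). In males alone it was -2.01 (SE 0.39, limma adjusted p = 0.0399), and the females differed by -1.52. The call ended without IgHMOG iGBGFP replicate 2 (adjusted p = 0.117), without IgHMOG iGBGFP replicate 3 (0.0856) and without the sex term (0.0911).

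Ier2 (ENSMUSG00000053560, chromosome 8, 84661331 to 84662852, minus strand) had 362, 289.7 and 317 normalized counts in WT iGB6 replicates 1, 2 and 3, against 599, 423 and 314 in IgHMOG iGBGFP replicates 1, 2 and 3. IgHMOG iGBGFP replicate 3 lay within the WT iGB6 range and replicate 1 was the highest, unlike the order of the Egr genes. The log2 fold change of -0.42 (SE 0.19) did not pass (limma adjusted p = 0.218). Ier3 (ENSMUSG00000003541, chromosome 17, 35821684 to 35822923, plus strand) had 296, 335 and 272 normalized counts in WT iGB6 replicates 1, 2 and 3, against 469.5, 677 and 261 in IgHMOG iGBGFP replicates 1, 2 and 3. IgHMOG iGBGFP replicate 3 was the lowest of all 6 mice and replicate 2 the highest. The log2 fold change of -0.54 (SE 0.30) did not pass (limma adjusted p = 0.311). Without IgHMOG iGBGFP replicate 3 it was -0.95, and without IgHMOG iGBGFP replicate 2 it was -0.16, neither of which passed.

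The groups did not overlap for 3 of the 6 tested members (Egr1, Egr2 and Ier5), with WT iGB6 lower in each, where 11.4% of all tested genes had WT iGB6 wholly below and 12.2% wholly above IgHMOG iGBGFP. The median log2 fold change was -1.55 over the 6 tested members and 0.02 over all tested genes. Because every replicate 1 was female, the sex term of the model cannot be separated from other features common to replicates 1. In a limma model with an interaction of sex and group, 0 of the 6 members and 0 of 9923 genes passed (adjusted p = 0.9996 for each member), with 0 members and 148 genes at an unadjusted p under 0.05. No other tool was run on the interaction, and it rests on 1 female in each group. By the authors' deposited table, Egr2 (log2 fold change -1.39, SE 0.36, adjusted p = 0.00395), Nr4a1 (-1.08, SE 0.28, adjusted p = 0.00368) and Ier5 (-1.59, SE 0.31, adjusted p = 4.19e-05) were called lower in WT iGB6 mice, where 4.29% of the 10537 genes with an adjusted p were called lower and 3.89% higher. On the recovered reads, edgeR called 2 members lower (Egr2 and Ier5), beside 3.55% of genes lower and 2.56% higher, and DESeq2 called the same 3 as limma, beside 5.33% lower and 4.25% higher. The same table gives Ier2 and Ier3 adjusted p values of 0.297 and 0.221.

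**Figure D2:**
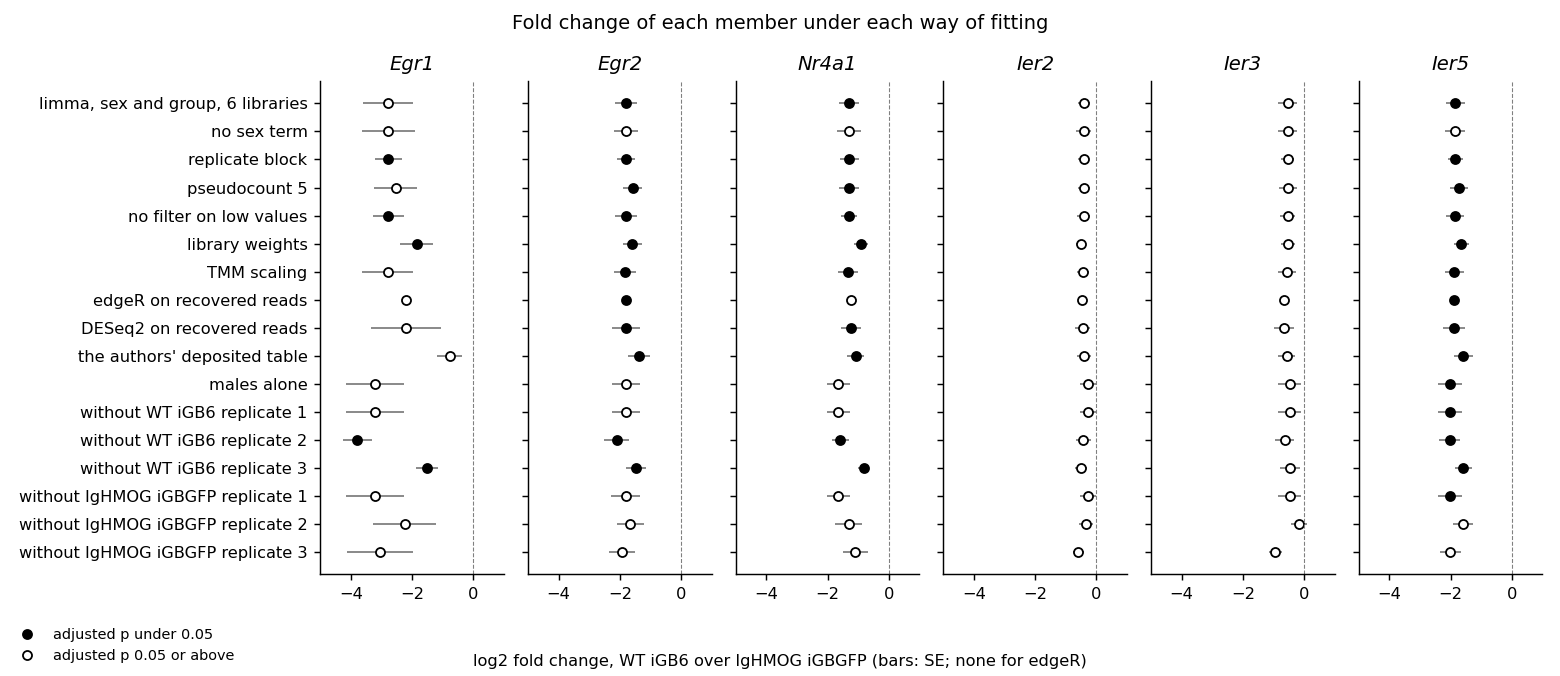
WT iGB6 over IgHMOG iGBGFP on the log2 scale for the 6 tested members under each processing setting. Filled points have an adjusted p under 0.05 and open points do not. All values lie below 0, from -3.79 to -0.78 for Egr1, from -2.02 to -1.58 for Ier5 and from -0.95 to -0.16 for Ier3. The -0.78 of Egr1 is from the authors' deposited table.

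Divided by the exon length of each gene, the members stood in the same order in both groups. Ier3 was the most abundant, with 266 ± 27.9 normalized counts per kb in WT iGB6 mice and 415 ± 184 in IgHMOG iGBGFP mice (SD, n = 3 each). Ier2 followed with 212 ± 23.9 per kb in WT iGB6 mice and 293 ± 94.6 in IgHMOG iGBGFP mice; its libraries overlapped those of Ier3 in IgHMOG iGBGFP mice and lay below them in WT iGB6 mice. Nr4a1 had 89.8 ± 40.8 normalized counts per kb in WT iGB6 mice and 219.6 ± 88.5 in IgHMOG iGBGFP mice, and its libraries overlapped those of Ier2 in IgHMOG iGBGFP mice and lay below them in WT iGB6 mice.

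The other members were lower per kb. Egr1 had 12.5 ± 13.2 normalized counts per kb in WT iGB6 mice and 58.9 ± 39.1 in IgHMOG iGBGFP mice. For Ier5 the level was 10.3 ± 3.03 per kb in WT iGB6 mice and 38.7 ± 14.5 in IgHMOG iGBGFP mice, and its libraries overlapped those of Egr1 in both groups. Egr2 stood at 5.09 ± 2.64 per kb in WT iGB6 mice and 17.7 ± 5.54 in IgHMOG iGBGFP mice, where all its libraries lay below those of Ier5, while in WT iGB6 mice they overlapped. Nr4a2, Nr4a3 and Egr3 lay below 1 per kb in both group means.

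The members did not keep constant proportions. On the per kb scale the level of Egr1 was 2.58, 3.33 and 0.413 times that of Egr2 in WT iGB6 replicates 1, 2 and 3, against 2.69, 4.41 and 2.31 times in IgHMOG iGBGFP replicates 1, 2 and 3. Apart from WT iGB6 replicate 3, with its 6 reads of Egr1, the libraries ranged from 2.31 to 4.41. Nr4a1 stood at 0.347, 0.703 and 0.255 times the level of Ier2 in WT iGB6 replicates 1, 2 and 3, and at 0.318, 0.837 and 1.46 times in IgHMOG iGBGFP replicates 1, 2 and 3. The groups overlap in both ratios, and IgHMOG iGBGFP replicate 3 had the highest ratio of Nr4a1 to Ier2.

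**Figure D3:**
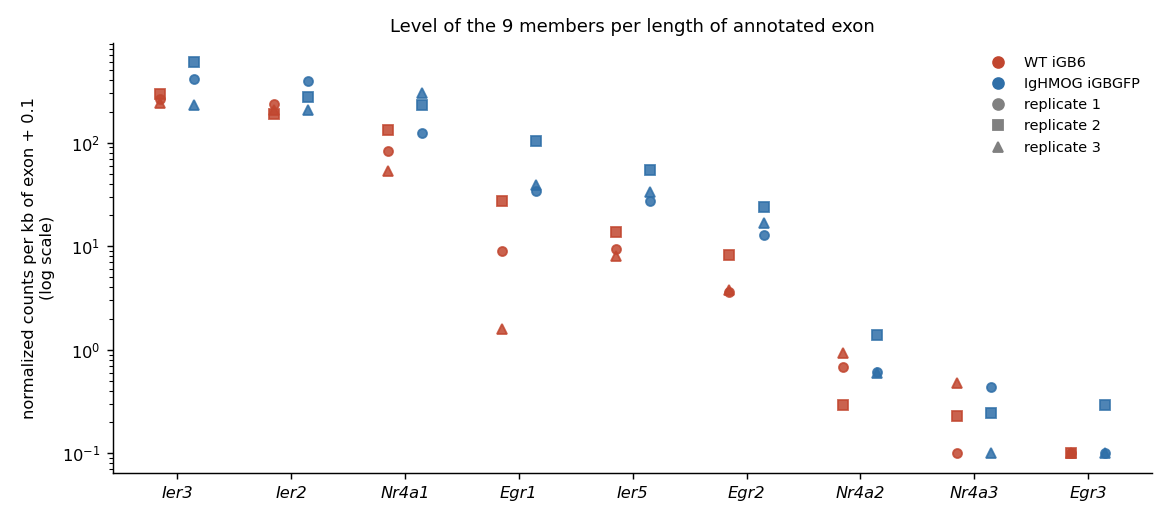
Normalized counts per kb of exon, plus 0.1, for the 9 members in each library, on a log scale. WT iGB6 libraries (red) stand left of IgHMOG iGBGFP libraries (blue) and marker shapes give the replicate number; Ier3, Ier2 and Nr4a1 lead in both groups, and Nr4a2, Nr4a3 and Egr3 lie near the floor.

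Other immediate early transcription factors, which stimuli induce alongside the Egr and Nr4a genes, included several that fell in WT iGB6 mice. Among 17 tested genes of this list of 19, 7 fell and 0 rose, and 10 did not pass. Over all tested genes, limma called 3.37% lower and 2.75% higher. The list had a median log2 fold change of -1.05, beside 0.02 over all tested genes. The 7 were the AP-1 genes Fos, Fosb, Jun and Junb, the stress-induced Atf3, and the Krüppel-like factors Klf2 and Klf4. Fosb averaged 5.77 normalized counts in WT iGB6 mice and 29.1 in IgHMOG iGBGFP mice. It reached the mean of 10 needed for testing only through its IgHMOG iGBGFP level. Junb (log2 fold change -1.44, SE 0.21, limma adjusted p = 0.0108) and Atf3 (-1.48, SE 0.29, limma adjusted p = 0.0220) had the smallest p of the list. Jun, a dimer partner of Fos, had 14.2, 24.5 and 20.2 normalized counts in WT iGB6 replicates 1, 2 and 3, against 39.9, 81.1 and 51.0 in IgHMOG iGBGFP replicates 1, 2 and 3. Its groups did not overlap, and its log2 fold change was -1.47 (SE 0.31, limma adjusted p = 0.0283). Klf2, which keeps leukocytes quiescent, had 59.3, 125 and 56.2 normalized counts in WT iGB6 libraries and 144, 352 and 195 in IgHMOG iGBGFP libraries (log2 fold change -1.51, SE 0.33, limma adjusted p = 0.0303). As for Egr1 and Egr2, replicate 2 was the highest of each group for Klf2.

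Feedback regulators of the early response, which dampen kinase, NF-kappa B or growth signals or shorten the life of transcripts, also held genes that fell. Among 23 tested genes of this list of 25, 13 fell and 0 rose, and 10 did not pass. The limma shares over all tested genes were 3.37% lower and 2.75% higher. The median log2 fold change was -1.05. Btg1, an antiproliferative gene, had 569, 842 and 681 normalized counts in WT iGB6 replicates 1, 2 and 3, against 1066, 1890.4 and 1693 in IgHMOG iGBGFP replicates 1, 2 and 3. Its groups did not overlap (log2 fold change -1.13, SE 0.17, limma adjusted p = 0.0113). Rgs2, a regulator of G protein signalling, fell with a log2 fold change of -1.06 (SE 0.20, limma adjusted p = 0.0187). Nfkbiz, an atypical nuclear I kappa B protein, changed by -1.11 (SE 0.21, limma adjusted p = 0.0197), and Dusp1, the phosphatase that inactivates p38 and JNK, by -2.20 (SE 0.51, limma adjusted p = 0.0361). Dusp1 was singled out for its function after its values were seen. Without IgHMOG iGBGFP replicate 2, without IgHMOG iGBGFP replicate 3 or without the sex term, limma called 0 genes of either list (at an unadjusted p under 0.05, 12 genes of the first list and 16 or 17 of the feedback list in each of the 3 fits). In males alone, without WT iGB6 replicate 1 or without IgHMOG iGBGFP replicate 1, the first list kept a count of 3 and the feedback list a count of 1.

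The factors that switch immediate early genes on, and the kinases above them, mostly did not pass the test. Of 20 SRF, ternary complex, MRTF, CREB and MEF2 genes, all tested, 18 did not pass, 2 fell and 0 rose. Over all tested genes, 3.37% were called lower and 2.75% higher. The median was -0.37, beside 0.02 over all tested genes, and 18 of the 20 log2 fold changes lay below 0. WT iGB6 lay wholly below IgHMOG iGBGFP for 7 of the 20, beside 11.4% of all tested genes. The fallen genes were Mef2a, a MEF2 factor (log2 fold change -0.91, SE 0.22, limma adjusted p = 0.0425), and Hdac5, a histone deacetylase that binds MEF2 factors and represses their targets (-1.21, SE 0.31, limma adjusted p = 0.0480). Limma called 0 genes of this list without WT iGB6 replicate 1 or 3 or without any 1 of the IgHMOG iGBGFP replicates. It also called 0 in males alone or without the sex term. In all these fits 5 or 6 genes had an unadjusted p under 0.05. Limma called 5 lower without WT iGB6 replicate 2, with the replicate block, with library weights or without the filter on low values. DESeq2 called 4 lower and edgeR 2. Srf averaged 12.8 ± 2.85 normalized counts in WT iGB6 mice and 18.4 ± 11.8 in IgHMOG iGBGFP mice (SD, n = 3 each) and did not pass. Creb1 averaged 350.2 ± 63.0 in WT iGB6 mice and 380.1 ± 80.5 in IgHMOG iGBGFP mice and did not pass either.

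Among 14 kinases of the ERK and p38 cascades, 13 did not pass, 1 fell and 0 rose, with a median of -0.28. Over all tested genes, 3.37% were called lower and 2.75% higher. WT iGB6 lay wholly below IgHMOG iGBGFP for 5 of the 14 and wholly above for 1, beside 11.4% and 12.2% of all tested genes. With library weights, limma called 3 of the 14 lower. Limma called 0 of them without either replicate 1, without IgHMOG iGBGFP replicate 2 or 3, in males alone or without the sex term (2 to 5 at an unadjusted p under 0.05), and 1 lower and 1 higher without WT iGB6 replicate 2. Of 10 partners of Egr and Nr4a proteins, 6 were tested, with a median of -0.17, and limma and edgeR called 0 of them while DESeq2 called 1, and 3 had an unadjusted limma p under 0.05. Rxra, the retinoid X receptor that pairs with Nr4a1, averaged 35.3 ± 16.1 normalized counts in WT iGB6 mice and 75.7 ± 10.4 in IgHMOG iGBGFP mice (SD, n = 3 each; limma adjusted p = 0.0601). Nab1, a corepressor bound by Egr proteins, averaged 58.3 ± 4.74 in WT iGB6 mice and 102.8 ± 47.6 in IgHMOG iGBGFP mice (limma adjusted p = 0.184). Nab2, the corepressor that Egr proteins themselves induce, was too low to test, with 1.19, 4.74 and 0 normalized counts in WT iGB6 libraries and 13.3, 8.62 and 6.00 in IgHMOG iGBGFP libraries. Of the close relatives outside the 9 genes, Egr4 had 0 reads in all 6 libraries and Ier5l had 1 read, in IgHMOG iGBGFP replicate 1.

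**Figure D4:**
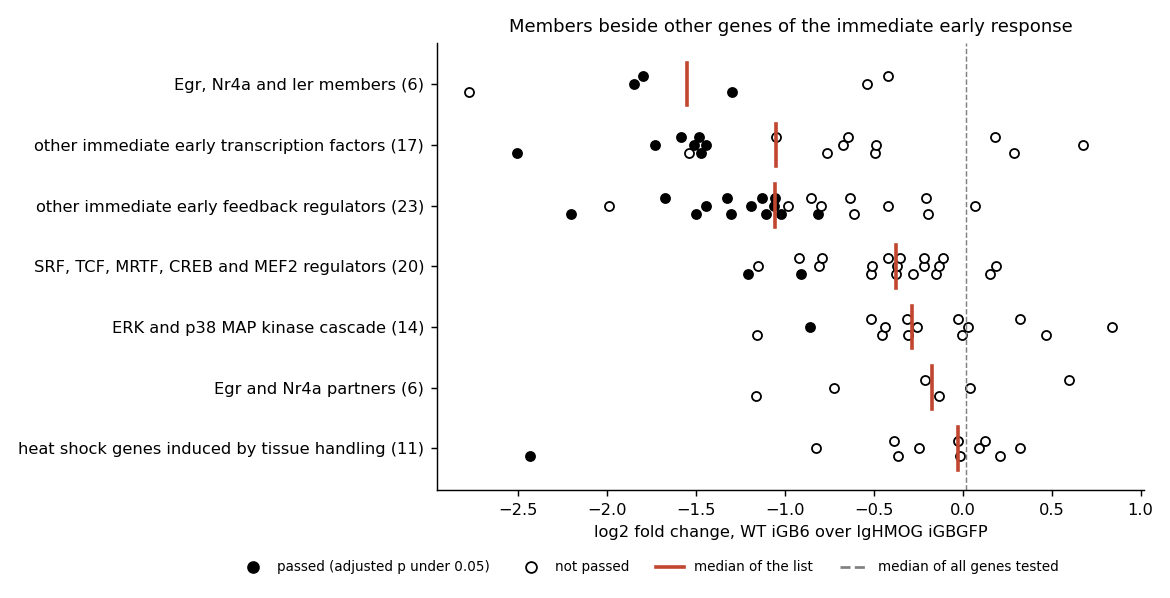
WT iGB6 over IgHMOG iGBGFP on the log2 scale for every tested gene of the members and of the related lists. Filled points passed the test (adjusted p under 0.05), open points did not, red marks are list medians and the dashed line is the median of all tested genes, 0.02; the other immediate early factors and the feedback regulators have medians of -1.05, and the heat shock genes a median of -0.03.

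Markers of several other cell types differed between the groups, while most heat shock genes induced by tissue handling did not pass. The part of either in the fall of Egr2, Nr4a1 and Ier5 was not tested. Beside the counts of the marker and heat shock lists below, limma called 3.37% of all tested genes lower and 2.75% higher. Of 7 conventional dendritic cell markers tested of 9, 5 fell, with a summed level of 99.6 to 388 normalized counts in WT iGB6 libraries and 529 to 1760.3 in IgHMOG iGBGFP libraries. For non-classical monocytes, 4 of 10 markers fell (Ace, Cd36, Cx3cr1 and Adgre4). The 10 markers summed to 3345 to 5336 in WT iGB6 libraries and 5211 to 7915 in IgHMOG iGBGFP libraries. Itgal, which did not pass, made up 53.2% of these sums. Without it they were 1633 to 2500 in WT iGB6 libraries and 2074 to 4271 in IgHMOG iGBGFP libraries. Among IgHMOG iGBGFP libraries, replicate 3 had the highest Nr4a1 and the highest sum of both lists, and replicate 2 the highest Egr2 and Ier5. Among WT iGB6 libraries, replicate 2 had the highest sum of both lists and the highest Nr4a1, Egr2 and Ier5. This order was not particular to those lists. WT iGB6 replicate 2 and IgHMOG iGBGFP replicate 3 also had the highest classical monocyte sums without Chil3 (20223 and 32585). The same held for the B and plasma cell sums (2381 and 4420.3). Of 7 basophil and mast cell markers 5 fell. The 7 summed to 464 to 1691 in WT iGB6 libraries and 1838 to 7470.3 in IgHMOG iGBGFP libraries. Prss34, which did not pass, made up 63.6% of these sums. Without it they were 215 to 517 in WT iGB6 libraries and 1164 to 2633 in IgHMOG iGBGFP libraries. Gata2, among the 5 that fell, averaged 5.39 in WT iGB6 mice and 48.3 in IgHMOG iGBGFP mice. It reached the mean of 10 only through its IgHMOG iGBGFP level. Neutrophil precursor markers rose in 7 of 7 cases, with sums of 10231 to 25887 in WT iGB6 libraries and 2060.2 to 5323 in IgHMOG iGBGFP libraries.

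Among 7 classical monocyte markers 3 fell, with sums of 114207 to 167907 in WT iGB6 libraries and 63862 to 104678 in IgHMOG iGBGFP libraries. Chil3, which did not pass, made up 82.1% of these sums, and without it they were 12337 to 20223 in WT iGB6 libraries and 15950.3 to 32585 in IgHMOG iGBGFP libraries. Mature neutrophil markers, of which 1 of 9 (Cxcr2) fell, summed to 305419.7 to 479779.6 in WT iGB6 libraries and 224452 to 468404 in IgHMOG iGBGFP libraries. S100a8, which did not pass, made up 41.5% of these sums. Without it they were 181723 to 250247 in WT iGB6 libraries and 140563 to 283688 in IgHMOG iGBGFP libraries. Cxcr2, Csf3r and Il1b were the 3 markers with an unadjusted limma p under 0.05, each lower in WT iGB6 mice. Of 4 T cell markers tested of 7, 1 (Lat) fell, with sums of 91.6 to 134 in WT iGB6 libraries and 174 to 219 in IgHMOG iGBGFP libraries. Cd3d, which did not pass (log2 fold change -0.02), made up 51.0% of these sums. Without it they were 28.4 to 48.4 in WT iGB6 libraries and 86.9 to 127 in IgHMOG iGBGFP libraries. Cd3e, Cd3g and Trac were too low to test. Of 5 B and plasma cell markers tested of 8, limma and edgeR called 0 and DESeq2 called 1 (3 had an unadjusted limma p under 0.05), with sums of 1932 to 2381 in WT iGB6 libraries and 2602 to 4420.3 in IgHMOG iGBGFP libraries. Without Ighm, which made up 94.9% of these sums, they were 58.1 to 102 in WT iGB6 libraries and 85.9 to 406 in IgHMOG iGBGFP libraries. Of 5 natural killer cell markers tested of 6, 1 rose, with sums of 568 to 2179 in WT iGB6 libraries and 455 to 1072 in IgHMOG iGBGFP libraries. Of 10 red pulp macrophage markers 1 rose, with sums of 6627 to 14429.6 in WT iGB6 libraries and 9328 to 12109 in IgHMOG iGBGFP libraries. Erythroid markers were called in 0 of 6 cases by limma, edgeR and DESeq2 (5 had an unadjusted limma p under 0.05), with sums of 1879.6 to 4386 in WT iGB6 libraries and 725 to 3046 in IgHMOG iGBGFP libraries. No marker of these lists was at 0 in all 6 libraries.

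Heat shock genes, which tissue handling induces alongside immediate early genes, mostly did not pass. Of 11 tested of 13, 10 did not pass, 1 fell and 0 rose, with a median log2 fold change of -0.03. The gene that fell was Hspa1a (log2 fold change -2.43, SE 0.32, limma adjusted p = 0.00716). Hspa1b is a near-identical copy whose reads may not be told apart from those of Hspa1a, and the effect of this on the call was not tested. Limma called 0 genes of the list without IgHMOG iGBGFP replicate 2 or without the sex term (1 at an unadjusted p under 0.05). The summed heat shock level was 8713, 13900.7 and 12374 normalized counts in WT iGB6 replicates 1, 2 and 3, against 7507, 15323 and 12701 in IgHMOG iGBGFP replicates 1, 2 and 3. The groups overlapped, and replicate 2 was the highest of each, as for Egr1, Egr2 and Ier5.

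Among 5154 other protein-coding genes with a mean of at least 100 normalized counts, the 6 whose profile over the 6 libraries lay nearest the mean profile of the tested members were Aqp9, Rara, Arg2, Smox, Tspan13 and Ddit3. Nearness was the root mean square difference of centred log2(normalized count + 1) values, which was 0.106 for Aqp9, 0.141 for Rara, 0.147 for Arg2, 0.171 for Smox, 0.179 for Tspan13 and 0.186 for Ddit3, beside a median of 0.906 over the candidates. Aqp9 is a water and glycerol channel of leukocytes, Rara a retinoic acid receptor, Arg2 the mitochondrial arginase and Ddit3 a transcription factor of the endoplasmic reticulum stress response. The members themselves lay between 0.256 for Ier5 and 1.08 for Egr1, with Egr2 at 0.283, Nr4a1 at 0.385, Ier3 at 0.594 and Ier2 at 0.753. The mean profile put WT iGB6 replicate 3 lowest and IgHMOG iGBGFP replicate 2 highest. These 6 points share the libraries and their depth, and the likeness is a description.

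**Figure D5:**
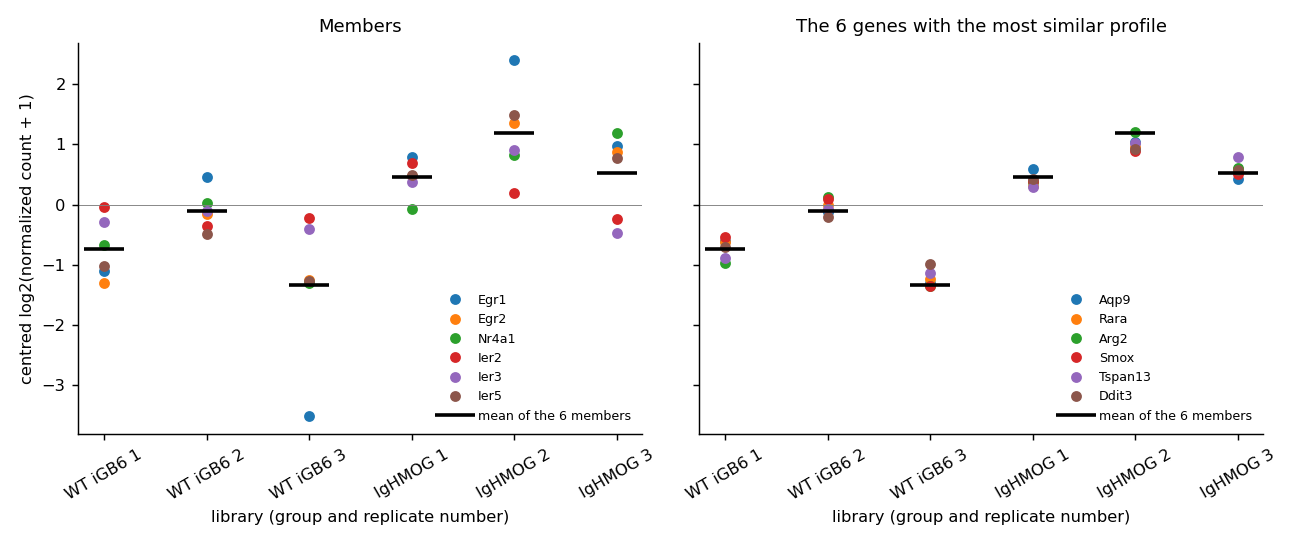
Centred log2(normalized count + 1) of the 6 tested members (left) and of the 6 genes with the nearest profile (right) in each library, with WT iGB6 libraries to the left of IgHMOG iGBGFP libraries. Black bars are the mean of the 6 members, lowest in WT iGB6 replicate 3 at -1.33 and highest in IgHMOG iGBGFP replicate 2 at 1.19; Egr1 in WT iGB6 replicate 3 lies at -3.52.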

How the data were processed

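Bulk RNA-seq of CD11b+ spleen cells was analysed from 6 mice, 3 in each group, with groups and replicate numbers taken from the labels, by which every library came from a separate mouse. The p-values measure the spread between these mice. Per the labels' protocols, cDNA was made with a low-input kit (8 to 16 ng of RNA, 17 cycles) and amplified for 9 more cycles as libraries. No molecular identifiers or strand setting are described, so counting intervals are lower limits.

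STAR 2.7.10b, featureCounts 2.0.3, DESeq2 2.11.40.7, cutadapt 4.4 and FastQC 0.74 are named, with the builds GRCm38 and mm10, per the submitters' processing notes. The authors' deposited signal values are normalized counts, and division by each library's step gave whole reads for 100% of values within 0.001. The deposited comparison table holds a Wald score beside the log2 fold change and its SE, then the raw and the adjusted p-value, with the column order read from the values.

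Symbols, gene coordinates and exon lengths came from GENCODE M21 on GRCm38 (42548 of 43432 genes matched), and no other annotated gene of the table overlapped a member. limma 3.58.1 in R 4.3.3 (lmFit, eBayes with trend) was fitted to log2(normalized count + 1) of all 9923 genes with a mean of at least 10, with sex and group as terms. Tests were two-sided, p-values were adjusted by Benjamini-Hochberg, and the threshold was 0.05. This scale understates changes of low genes. Alternatives were DESeq2 1.42.0 and the quasi-likelihood test of edgeR 4.0.16 with TMM factors, both on recovered reads, other pseudocounts, filters, weights and scalings, a replicate block, males alone and leaving out each library. edgeR called 606 genes and DESeq2 951. The limma, edgeR and DESeq2 fits were tested on data simulated with the same spread for every gene and no effect of sex or replicate. This test does not cover genes that vary as widely between mice as Egr1.

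The members and gene lists were chosen with earlier results of these data known. The rule for named genes took up to 4 genes with the smallest p from each list, not all of which are described, and the 6 genes of nearest profile; 1 gene under this rule is not reported here. Srf, Creb1, Nab2, Dusp1, the other called early factors and single marker genes were named outside it, after their values were seen. Sequences are from RefSeq, which had a promoter entry for 6 of the 9 members; other sequences were not used here.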

Additional observations from a re-analysis of the deposited data

How the results depend on the processing

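Limma called 3 members and 607 genes. No log2 fold change of the 6 tested members reversed under any of the 16 alternatives. Ier2 and Ier3 passed under none, with adjusted p from 0.0532 to 0.653 and from 0.108 to 0.788. Over its alternatives the adjusted p ran from 1.85e-05 to 0.117 for Ier5, from 0.000936 to 0.178 for Egr2, from 0.000625 to 0.232 for Nr4a1 and from 1.12e-05 to 0.334 for Egr1. Without the sex term limma called 0 members (4 at an unadjusted p under 0.05) and 10 genes, and in males alone 1 member (Ier5) and 134 genes, in a fit with fewer libraries. The count of all genes was 1079 without the filter on low values, 1443 with library weights and 951 with DESeq2; for these the cause was not tested. Leaving out 1 library at a time gave 0 to 4 members and 4 to 1083 genes, with the lowest count of genes without IgHMOG iGBGFP replicate 2 and the highest without WT iGB6 replicate 2. Depth limits Egr3, Nr4a2 and Nr4a3, with at most 6 reads in a library, and Egr1 in WT iGB6 replicate 3.

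With the replicate block, 4 members and 1001 genes passed, Egr1 among them (adjusted p = 0.00624). Deviations from the group means correlated at 0.48, 0.35 and 0.04 between libraries numbered 1, 2 and 3. Libraries numbered 1 and those numbered 2 correlated best with each other, and those numbered 3 did not. Same-numbered mice also had the same sex and close mouse numbers in the labels, which do not state a pairing. With 3 libraries in each group these correlations cannot decide whether the mice were paired. The main model used no pairing.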
